A study of Mus with 9 samples.

Results

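Mitochondrial biogenesis, the making of new mitochondria, depends on nuclear genes that switch on the proteins of the organelle and on nuclear genes that copy and read its own DNA. The coactivators PGC-1α and PGC-1β work with the transcription factors NRF1 and ERRα. These factors drive respiratory chain genes and Tfam, whose product packs mitochondrial DNA and starts its transcription. SIRT1 removes acetyl groups from PGC-1α, and SIRT3 removes them from enzymes inside the mitochondrion. Both deacetylases use NAD. Neurons of the hippocampus rely on mitochondria for the ATP that synaptic signalling consumes, and PGC-1α in this region is known to be abundant in GABAergic interneurons.

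The regulators described here are the 9 genes Ppargc1a, Ppargc1b, Nrf1, Esrra, Sirt1, Sirt3, Tfam, Tfb2m and Polg, found by their symbol among the 22206 probe sets of a Clariom S Mouse array, which name 21154 genes by a symbol standing alone. For 8 of the 9 the symbol stood alone on 1 probe set. Esrra was listed only on a probe set that also names Mir6990, so its values are given apart and it is left out of the counts.

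Hippocampal RNA came from 3 groups of male mice with 3 arrays each. SAMP8 is a senescence-accelerated inbred strain with early memory loss, and SAMR1 is its senescence-resistant control strain. The methods give the age of the mice as 16 weeks and do not state the age at tissue collection, which followed acclimatization, dosing and testing. The SAMR1 and nontreated SAMP8 groups received vehicle for 30 days (saline in the sample records, water in the study's methods). The TG-treated SAMP8 group was dosed orally each day with 5 mg/kg trigonelline (TG), the N-methyl derivative of nicotinic acid, over the same 30 days. All groups were then tested in the Morris water maze for 8 days, during which TG was continued, so each value follows maze training. No group of SAMR1 given TG is among the samples.

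All values are the authors' group averages on a log2 scale, 1 number per group, from which no standard deviation, test or overlap of single arrays was computed. The p-values that the authors deposited beside them were not used. A difference of averages was counted as past the limit above 1.5-fold, which is 0.585 on the log2 scale. Between SAMP8 and SAMR1, 11.1% of all probe sets were past it, between TG-treated and nontreated SAMP8 8.21%, and between TG-treated SAMP8 and SAMR1 10.5%. The sample records give the tissue as hippocampus, but their description field speaks of a macrophage line. The neuronal gene Snap25 averaged from 17.92 to 18.23 and Prox1, known from dentate granule cells, from 11.00 to 11.85 over the groups. The 5 macrophage markers averaged from 4.81 (Adgre1) to 6.27 (Lyz2). Levels of different probe sets cannot be set against each other, so these values do not settle the tissue by themselves. In bulk tissue, fewer cells of a type and less RNA per cell cannot be told apart.

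The counts of regulators past 1.5-fold were near the share of all probe sets. In SAMP8 compared with SAMR1, 0 of 8 were past 1.5-fold, and the differences ran from -0.06 to 0.38 (log2). With TG compared with nontreated SAMP8, again 0 of 8 were past it, with differences from -0.28 to 0.31. Sirt1 alone passed the limit between TG-treated SAMP8 and SAMR1, 1 of 8 higher where 5.62% of all probe sets were higher and 4.83% lower. At a lower limit of 1.2-fold, 2, 2 and 3 of the 8 were past it in these comparisons, where 40.8%, 38.2% and 40.5% of all probe sets were. At 2-fold there were 0 of 8 in each, where 2.22%, 0.761% and 1.81% of all probe sets were past it. The median difference of the 8 genes was 0.09 in SAMP8 vs SAMR1, beside 0.00 over all probe sets, and -0.05 with TG vs SAMP8, beside 0.01 over all probe sets. Probe sets of like signal, within 0.5 log2 of a gene's mean, themselves had medians of 0.11 to 0.14 in SAMP8 vs SAMR1 for 6 of the 8 genes, 0.06 for Nrf1 and 0.00 for Polg. Both medians of the 8 genes changed sign when the columns of averages were brought to a common distribution by quantile normalization, to -0.025 and 0.02. Between TG-treated SAMP8 and SAMR1 the median was 0.035, beside -0.01 over all probe sets.

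**Figure D1:**
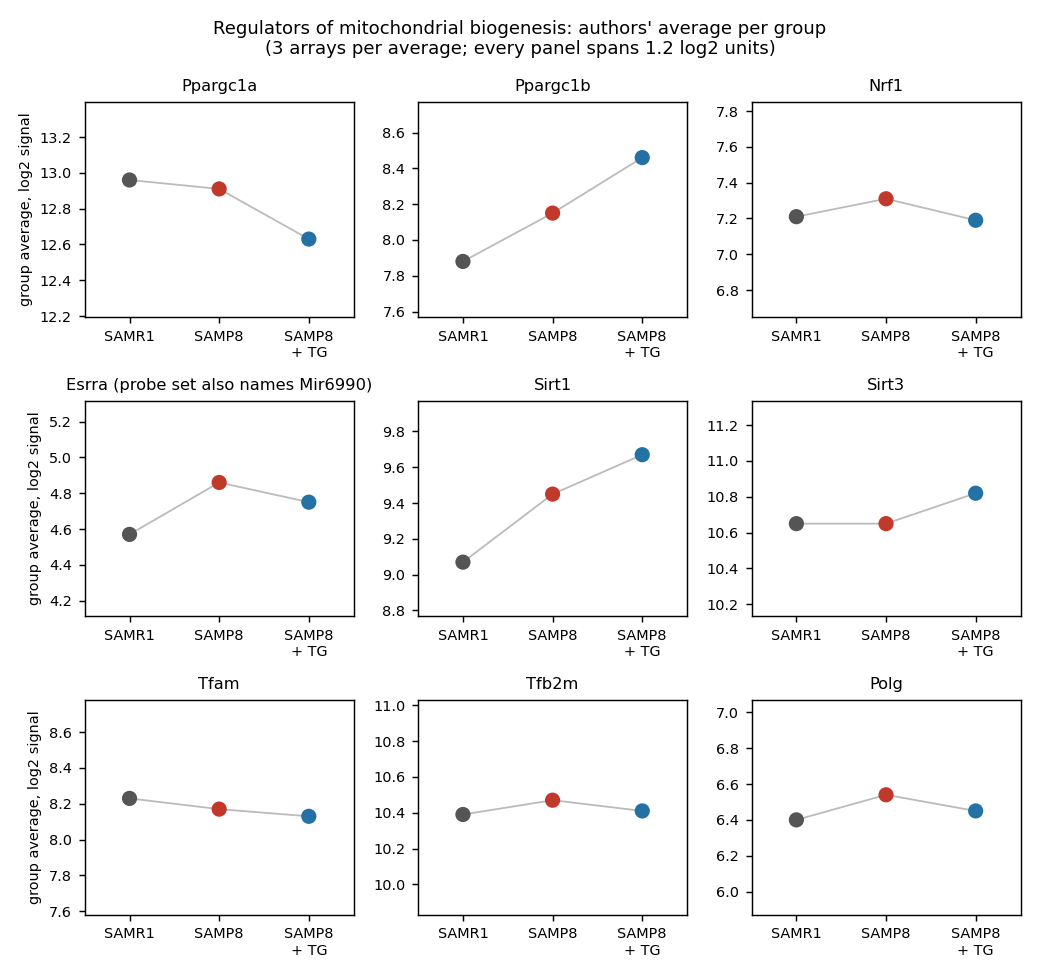
Group average of each regulator (y axis, log2 signal) in SAMR1, nontreated SAMP8 and TG-treated SAMP8 (x axis), with 1 point per group and no error bars because the tables give averages alone. Every panel has a y axis of the same length, and Sirt1 and Ppargc1b show the widest ranges over the groups, 0.60 and 0.58.

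The coactivator genes went in opposite directions with TG. Ppargc1a, which encodes PGC-1α and lies on chromosome 5 (51454249 to 52115853, mouse build GRCm38), averaged 12.96 in SAMR1, 12.91 in SAMP8 and 12.63 with TG. The TG-treated average was the lowest, by 0.28 against SAMP8 and by 0.33 against SAMR1, or 1.26-fold. Differences at least this far from 0 were found for 37.1% and 37.3% of the 526 probe sets whose mean signal lay within 0.5 of it. Ppargc1b, on chromosome 18, encodes the relative PGC-1β, and its averages were 7.88 in SAMR1, 8.15 in SAMP8 and 8.46 with TG. It was thus 0.27 higher in SAMP8 than in SAMR1 and a further 0.31 higher with TG. Of the 1872 probe sets of like signal, 46.5% and 37.7% were at least as far from 0 in these comparisons. The difference of 0.58 between TG-treated SAMP8 and SAMR1, 1.49-fold, stood just below the limit, and 14.9% of probe sets of like signal were as far from 0. The averages are rounded to 0.01, so on which side of 1.5-fold Ppargc1b lies was not settled by these values.

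Because Ppargc1a is known from interneurons, 4 interneuron markers are given beside it. Gad1 and Gad2, the enzymes of GABA synthesis, were lower with TG than in nontreated SAMP8 by 0.35 and 0.43. Pvalb and Sst, which mark separate interneuron classes, were higher with TG, Pvalb at 7.65 against 6.82 and Sst at 12.00 against 11.31. The 4 markers therefore did not share a direction, their mean level was 10.28 in SAMP8 and 10.47 with TG, and their part in the Ppargc1a values was not tested.

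Sirt1, the nuclear NAD-dependent deacetylase (chromosome 10, 63319005 to 63339035), averaged 9.07 in SAMR1, 9.45 in SAMP8 and 9.67 with TG. SAMP8 stood 0.38 above SAMR1, and 27.2% of the 1556 probe sets of like signal were at least as far from 0. TG-treated SAMP8 stood 0.22 above nontreated SAMP8 and 0.60 above SAMR1, a 1.52-fold difference reached or exceeded in size by 12.9% of probe sets of like signal. The Sirt1 difference between TG-treated SAMP8 and SAMR1 was 0.52 after quantile normalization, below the limit. Sirt3, the mitochondrial deacetylase on chromosome 7 (140863663 to 140882309), was at 10.65 in SAMR1 and SAMP8 alike and at 10.82 with TG. Its difference of 0.17 with TG was 1.13-fold, and 61.8% of probe sets of like signal lay at least that far from 0.

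Nrf1, the transcription factor of respiratory chain genes (chromosome 6, 30047985 to 30153458), averaged 7.21, 7.31 and 7.19 in SAMR1, SAMP8 and TG-treated SAMP8. No pair of its averages differed by more than 0.12. The probe set that names Esrra together with Mir6990 averaged 4.57, 4.86 and 4.75 in the same order. Esrra encodes ERRα, an orphan nuclear receptor that PGC-1α activates (chromosome 19, 6910977 to 6922048). The SAMP8 average was 0.29 above that of SAMR1, and 39.5% of the 3970 probe sets of like signal were at least as far from 0. With this probe set counted as a 9th gene, the numbers past the limit were the same in all 3 comparisons.

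The genes acting directly on mitochondrial DNA had ranges of 0.08 to 0.14 over the groups, and that of Nrf1 was 0.12. Tfam (chromosome 10, 71225468 to 71238328) averaged 8.23 in SAMR1, 8.17 in SAMP8 and 8.13 with TG. Tfb2m, which melts the promoter for the mitochondrial RNA polymerase (chromosome 1, 179528052 to 179546305), averaged 10.39, 10.47 and 10.41. Polg, the catalytic subunit of the mitochondrial DNA polymerase (chromosome 7, 79446231 to 79467911), averaged 6.40, 6.54 and 6.45. Over the groups, Tfb2m spanned 0.08, Tfam 0.10 and Polg 0.14. The order of the Tfb2m averages is not settled at this size, since quantile normalization turned its difference in SAMP8 vs SAMR1 from 0.08 to -0.10.

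The gene pattern most like that of Sirt1, the regulator with the widest range, was looked for among 77 genes around the regulators. Likeness was the Euclidean distance between the 3 group averages after each gene's own mean was subtracted. The nearest was Uqcrc2, a core subunit of respiratory complex III, with averages of 10.31, 10.58 and 10.83 at a distance of 0.08. It was followed by Stk11, the kinase LKB1, at 0.106 and Prkab2, a regulatory subunit of AMP-activated protein kinase, at 0.119. As many as 206 other probe sets of the array lay as near to Sirt1 as Uqcrc2, so 3 averages separate patterns poorly.

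Other genes of the pathway were grouped by role, and 64 of them had a probe set of their own. Between SAMP8 and SAMR1, 4 were higher and 2 lower past 1.5-fold (9.38%), where 5.00% of all probe sets were higher and 6.08% lower. With TG compared with nontreated SAMP8, 1 was higher and 1 lower, 3.12% beside 8.21%. Between TG-treated SAMP8 and SAMR1, 3 were higher and 2 lower, 7.81% beside 10.5%. The medians of the 64 genes were 0.04, -0.06 and 0.01 in these comparisons. After quantile normalization the first median was 0.00 and the last -0.04. The counts past the limit were then 2 higher and 2 lower in SAMP8 vs SAMR1 and 3 higher and 4 lower in TG-treated SAMP8 vs SAMR1. The shares of all probe sets above are for the averages as deposited and do not apply to these counts.

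Nrip1 stood apart from the rest of the pathway. It encodes RIP140, a nuclear receptor corepressor known to hold down genes of oxidative metabolism, and lies on chromosome 16 (76287403 to 76373827). Its average was 8.06 in SAMR1, 11.04 in SAMP8 and 10.81 with TG. Both SAMP8 groups were thus far above SAMR1, by 2.98 without TG (7.89-fold) and by 2.75 with it, while the TG-treated and nontreated groups differed by 0.23. Of all 22206 probe sets, 19 had a higher difference in SAMP8 vs SAMR1. The difference was 3.03 after each group was centred on its median and 2.86 after quantile normalization.

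Both other coactivator genes had lower averages in SAMP8 than in SAMR1. Perm1, known from muscle as a gene that PGC-1 and ERR proteins induce, averaged 5.94 in SAMR1, 5.11 in SAMP8 and 5.28 with TG. Pprc1, the PGC-1-related coactivator, averaged 5.16, 4.43 and 4.68. Against SAMR1 they were lower in SAMP8 by 0.83 and 0.73, and TG-treated SAMP8 was 0.17 and 0.25 above nontreated SAMP8. Probe sets of like signal to Perm1 and Pprc1 had medians of -0.08 and -0.10 in SAMP8 vs SAMR1. Of these, 5.77% and 6.31% were at least as far from 0.

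Among transcription factors and receptors, Gabpb1, a subunit of NRF-2, averaged 7.39 in SAMR1, 8.00 in SAMP8 and 7.59 with TG. Gabpa, the DNA-binding subunit of the same factor, averaged 10.48, 10.66 and 10.71. Tfe3 and Tfeb, related factors that also control lysosomal genes, went apart: Tfe3 averaged 6.90, 7.60 and 7.22, and Tfeb 7.95, 7.68 and 7.27. Thrb, a thyroid hormone receptor, was 0.60 higher in SAMP8 than in SAMR1 and 0.49 lower with TG than in nontreated SAMP8. Pparg, a fatty acid-sensing receptor, averaged 5.96 in SAMR1, 5.99 in SAMP8 and 6.59 with TG, and was the 1 pathway gene above the limit with TG. After quantile normalization the strain differences of Gabpb1 and Thrb were 0.53 and 0.44 and the TG difference of Pparg was 0.57, all below the limit. With group medians centred, the TG difference of Pparg was also 0.57.

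Of the kinases upstream of PGC-1α, 9 of 10 had a higher average in SAMP8 than in SAMR1, with differences from -0.08 to 0.53 and 0 of 10 past 1.5-fold, where 11.1% of all probe sets were. Probe sets of like signal to these 9 had medians of 0.12 to 0.15 in the same comparison, and Prkaa1 (0.15), Prkag1 (0.13), Camkk2 (0.12) and Prkag2 (0.04) lay within 0.01 of them or below. Of the 9, Prkag1, Prkag2 and Camkk2 turned to -0.05, -0.07 and -0.06 after quantile normalization. Stk11 averaged 8.65 in SAMR1, 9.18 in SAMP8 and 9.32 with TG, and its difference of 0.67 between TG-treated SAMP8 and SAMR1 was past the limit. Of the sirtuins outside the 9 regulators, Sirt4, a mitochondrial sirtuin, averaged 6.31, 6.61 and 5.99, which was 0.62 lower with TG than in nontreated SAMP8. The sirtuins Sirt2, Sirt5 and Sirt6 each differed by at most 0.37 in any comparison.

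TG is chemically close to nicotinic acid, a precursor of the NAD that sirtuins consume, so 8 genes of NAD synthesis were looked at. In each of the 3 comparisons 0 of 8 were past 1.5-fold, where 11.1%, 8.21% and 10.5% of all probe sets were. Nampt, the rate-limiting enzyme of NAD salvage, averaged 9.72 in SAMR1, 9.36 in SAMP8 and 9.70 with TG. Naprt, which takes up nicotinic acid into NAD synthesis, averaged 4.06, 3.76 and 3.85. Over the 8 genes, differences with TG vs SAMP8 ran from -0.32 to 0.34.

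Other genes of mitochondrial DNA upkeep were counted the same way. Of 8 transcription genes and 9 replication genes, 0 were past 1.5-fold in any comparison, beside the same 11.1%, 8.21% and 10.5% of all probe sets. Polrmt, the mitochondrial RNA polymerase, averaged 4.33, 4.32 and 4.13, and Ssbp1, which coats single-stranded mitochondrial DNA, 9.44, 9.80 and 9.84. The largest difference of these 17 genes was that of Mterf4, a termination factor family member, at 0.58 in SAMP8 vs SAMR1, and it was 0.63 with group medians centred. Mterf2, of the same family, averaged 7.36, 7.21 and 6.79, and its difference between TG-treated SAMP8 and SAMR1 was -0.60 after quantile normalization.

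**Figure D2:**
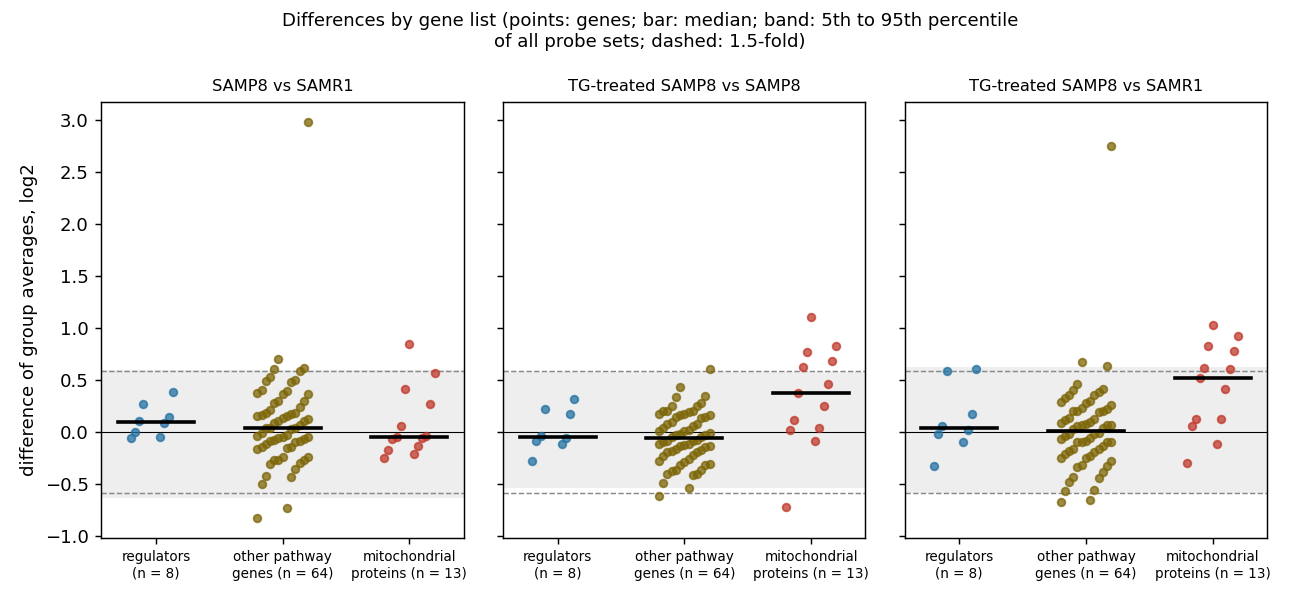
Differences of group averages (y axis, log2) in 3 comparisons for the 8 regulators, 64 other pathway genes and 13 nuclear-encoded mitochondrial proteins, 1 point per gene, with the median of each list as a bar, the 5th to 95th percentile of all probe sets as a band and 1.5-fold as dashed lines. The regulators stay close to 0 with TG vs SAMP8 (median -0.05), the mitochondrial proteins have a median of 0.37, and the single point near 3 is Nrip1. The lists were chosen with earlier results of these data known.

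Genes for proteins that work inside mitochondria were looked at next, with no test against the regulators. Their list was chosen with earlier results of these data known. The study had reported respiration and ATP synthesis terms among genes raised by TG on the same arrays, so the counts are no independent support. Of 13 nuclear-encoded genes, 5 were higher and 1 lower past 1.5-fold with TG vs SAMP8, where 4.48% and 3.74% of all probe sets were. The median over the 13 was 0.37 in this comparison and -0.05 in SAMP8 vs SAMR1. Quantile normalization gave medians of 0.43 and -0.17 and the same 5 and 1 past the limit. Between TG-treated SAMP8 and SAMR1, 6 were higher and 0 lower past the limit, where 5.62% of all probe sets were higher and 4.83% lower. After quantile normalization 4 were higher past it, with Sdhb and Sod2 at 0.52 and 0.54. The share of all probe sets past the limit under that scaling is not given, so its counts have no background beside them. All 3 comparisons rest on 3 groups, so they share arrays. Cox4i1, a subunit of cytochrome c oxidase, averaged 11.24 in SAMR1, 11.06 in SAMP8 and 12.16 with TG, 2.14-fold higher with TG than without. Cox5b, from the same complex, averaged 11.60, 11.56 and 12.38, and Atp5b, the catalytic subunit of ATP synthase, 15.03, 15.08 and 15.85. In these 3 genes SAMR1 and nontreated SAMP8 lay within 0.18 of each other and TG-treated SAMP8 lay above both.

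Sod2, the superoxide dismutase of the matrix, averaged 13.62, 13.55 and 14.23, with TG-treated SAMP8 again above the other groups. Acadm, an enzyme of fatty acid oxidation, averaged 7.48, 7.89 and 8.51, and was 2.04-fold higher in TG-treated SAMP8 than in SAMR1. Ucp2, an uncoupling protein family member, went the other way with TG, from 9.44 in SAMP8 to 8.72, after 8.60 in SAMR1. Sdhb, a subunit of complex II, averaged 9.78, 10.34 and 10.38. The RNA of citrate synthase (Cs), whose enzyme activity is often used as a measure of mitochondrial content, was at 13.25, 13.19 and 13.30. That of Tomm20, of the import pore, was at 12.74, 12.53 and 12.44. Enzyme activity and mitochondrial content were not measured here. The 13 protein genes encoded by mitochondrial DNA were looked for by symbol and matched no probe set, so they have no values here.

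The length of a gene on the chromosome moved with these values, in a direction that depended on the comparison. In SAMP8 vs SAMR1, the median difference was -0.04 over probe sets of genes under 15 kb and 0.08 over those above 100 kb. For TG-treated SAMP8 vs SAMR1 these medians were 0.00 and -0.03. With TG vs SAMP8, the median difference was 0.06 over 8944 probe sets of genes under 15 kb and -0.12 over 2298 probe sets of genes over 100 kb. In the same comparison, 6.03% of the probe sets under 15 kb were higher past 1.5-fold and 2.21% lower. Over 100 kb, 1.65% were higher and 8.36% lower. Of the 8 regulators, 1 spanned under 15 kb and 3 (Ppargc1a, Ppargc1b and Nrf1) over 100 kb. Of the 13 mitochondrial proteins, 6 spanned under 15 kb and 0 over 100 kb. Those 6 include Cox4i1, Cox5b, Atp5b and Sod2, which were higher with TG, and Ucp2, which was lower. The part of gene length in the differences was not tested. Markers of cell types and of neighbouring tissue also differed between the groups. The mean level of 4 thalamus markers was 8.44 in SAMR1, 8.90 in SAMP8 and 8.07 with TG. Zic1 stood at 9.56 with TG against 11.47 in nontreated SAMP8, and Prkcd at 9.53 against 11.03. Tcf7l2 (8.44 against 8.48) and Lef1 (4.74 against 4.64) differed little. The mean of 6 meninges markers was 7.74, 7.85 and 7.09. With TG, 3 of them were lower than in nontreated SAMP8 (Ptgds at 7.57 against 10.26, Igf2 at 6.78 against 8.67, Dcn at 9.38 against 10.15). The other 3 were higher, Lum by 0.46, Col1a2 by 0.17 and Col1a1 by 0.13. Of 4 mural cell markers, 3 were lower with TG than in nontreated SAMP8 (Acta2 at 5.54 against 7.71) and their mean was 5.98, 6.52 and 5.88. Of 4 oligodendrocyte markers, 3 were higher with TG (Mag at 7.37 against 6.66), with means of 12.32, 12.14 and 12.44. Of 5 markers of hippocampal neurons, 2 were lower with TG (Prox1 by 0.85, Wfs1 by 0.48) and 3 higher. Between SAMP8 and SAMR1, 4 of 4 astrocyte markers were higher in SAMP8, Gfap and Slc1a3 by 0.95 and 0.62, Aldh1l1 and Aqp4 by 0.17 and 0.12. So were 3 of 3 endothelial markers (Flt1 at 9.38 against 8.72). Of 5 microglia markers, 3 were higher in SAMP8 (Aif1 at 7.22 against 5.71) and 2 lower. Markers were not set beside probe sets of like signal. The part of these cell types in the differences was not tested.

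**Figure D3:**
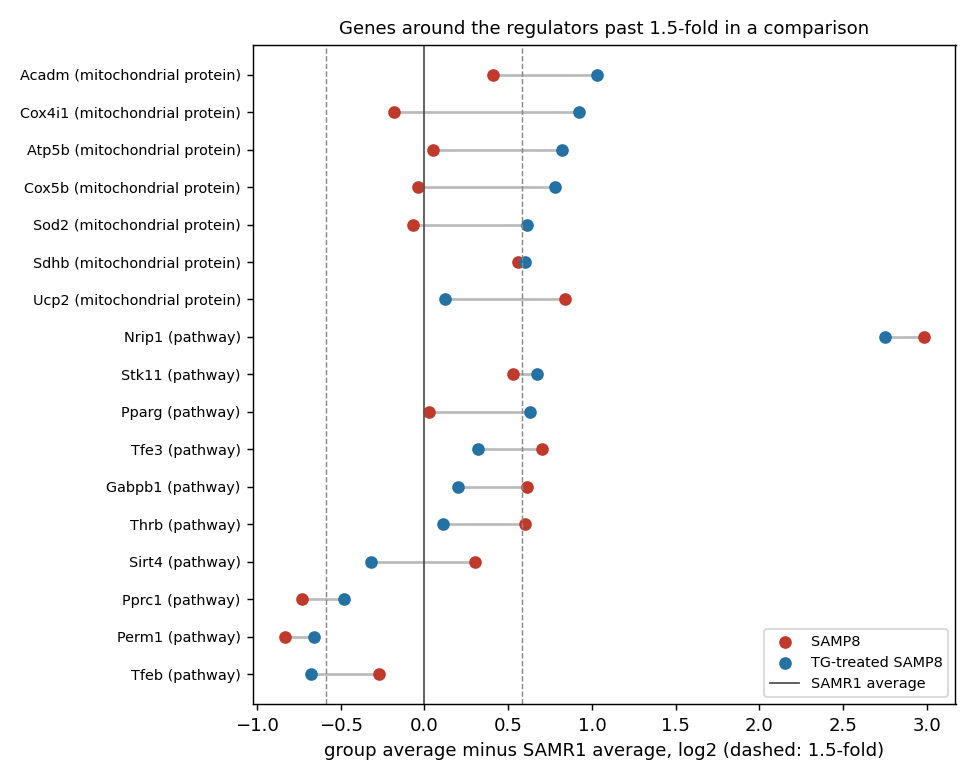
Group average minus the SAMR1 average (x axis, log2) in SAMP8 and TG-treated SAMP8 for the 17 pathway and mitochondrial protein genes past 1.5-fold (dashed lines) in at least 1 comparison, 1 row per gene. Nrip1 lies far to the right in both SAMP8 groups (2.98 and 2.75), whereas Cox4i1, Cox5b, Atp5b and Sod2 lie near or below 0 in SAMP8 and above 0.60 with TG.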

How the data were processed

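Hippocampal RNA was hybridized to 9 Clariom S Mouse arrays, 3 per group. The authors summarized the intensities by SST-RMA in the Transcriptome Analysis Console (version 4.0.1 per the series text, a later release in the study's methods), with the mm10 array annotation. The 2 deposited tables hold, per probe set, the authors' group averages as log2 signal. They also hold the authors' fold changes and p-values for SAMP8 vs SAMR1 and TG-treated vs nontreated SAMP8, which were not used. The SAMP8 averages are identical in the tables, so all comparisons share arrays. Averages ran from 2.39 to 19.93. The number of arrays limits the precision, and values per array were not analysed here.

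Differences of averages were computed in Python 3.11.15 with numpy 2.4.6 and pandas 2.3.3 (figures, matplotlib 3.10.9) and counted past 1.5-fold over all 22206 probe sets. A separate check added known shifts, larger than the limit, to some of the SAMR1 averages and counted them. Its outcome was fixed by the size of the shifts, and it did not run the counting used here. Probe sets of like signal are those within 0.5 log2 of a gene's mean. Alternatives were limits of 1.2 and 2, centring on group medians, quantile normalization, and leaving out the lowest 25% of probe sets. Genes named are the regulators, listed genes past 1.5-fold, and the 3 nearest in pattern. Others (markers, Gabpa, Sirt2, Sirt5, Sirt6, Nampt, Naprt, Polrmt, Ssbp1, Mterf2, Mterf4, Prkag1, Prkag2, Camkk2, Cs and Tomm20) were added after their values were seen. The regulators and lists were chosen with earlier results of these data known. Positions are RefSeq gene spans on GRCm38, the build of the array annotation.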

Additional observations from a re-analysis of the deposited data

How the results depend on the processing

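The number of regulators past the limit was 0, 0 and 1 in SAMP8 vs SAMR1, TG-treated SAMP8 vs SAMP8 and TG-treated SAMP8 vs SAMR1. At a limit of 1.2-fold it was 2, 2 and 3, where 40.8%, 38.2% and 40.5% of all probe sets were past it, and at 2-fold it was 0 in the last comparison. Centring on group medians made that last count 2, since Ppargc1b reached 0.60, and quantile normalization made it 0. Shares of all probe sets past the limit under these scalings are not given, for these counts or for those of other pathway genes below. The regulators' medians of 0.09, -0.05 and 0.035 became 0.14, -0.08 and 0.055 with centring and -0.025, 0.02 and 0.005 with quantile normalization. With the Esrra probe set the last was 0.05. Of the 64 other pathway genes, 6, 2 and 5 were past the limit, where 11.1%, 8.21% and 10.5% of all probe sets were. At 1.2-fold they numbered 28, 19 and 25 of 64, beside the same 40.8%, 38.2% and 40.5% of all probe sets. At 2-fold they numbered 1, 0 and 1, where 2.22%, 0.761% and 1.81% of all probe sets were past it. With TG vs SAMP8, 1 was past 1.5-fold after centring and after quantile normalization. Of the 24 differences of single regulators, 0 changed sign with centring and 4 with quantile normalization (1 of Tfam, 3 of Tfb2m), which moved them by at most 0.18. Leaving out the lowest 25% of probe sets removed 0 of the 8 regulators, whose lowest average was 6.40. Their counts and medians therefore could not change, and this setting does not test them. The counts of other pathway genes at 1.5-fold were the same. Leaving out single arrays was not run, because the tables give averages alone. No paired analysis was possible because the tables hold 1 average per group. The causes of these shifts were not tested.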

Other observations

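Genes of mitochondrial fusion, fission and removal were chosen after the other values were seen. Of 14 with a probe set of their own, 1 (7.14%) was past 1.5-fold in each comparison, where 11.1%, 8.21% and 10.5% of all probe sets were. Bnip3, a receptor that marks mitochondria for removal, averaged 9.56 in SAMR1, 10.48 in SAMP8 and 10.47 with TG. Its relative Bnip3l averaged 10.80, 11.18 and 11.33. Mfn1, an outer membrane fusion protein, averaged 10.08, 10.49 and 9.69, which was 0.80 lower with TG than in nontreated SAMP8, while its partner Mfn2 averaged 10.91, 10.88 and 11.02. No difference of Opa1, Dnm1l or Mff between groups was over 0.19.

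The genes around Nrip1 were looked at for the same strain difference. Of 6 measured genes within 1 Mb on either side, differences in SAMP8 vs SAMR1 ran from -0.27 (Samsn1) to 0.38 (Lipi), against 2.98 for Nrip1 itself. Hspa13 averaged 10.50 in SAMR1, 10.80 in SAMP8 and 10.41 with TG, and Usp25 averaged 10.68, 10.59 and 10.05.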
